A study of Mus musculus with 14 samples.

Results

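The comparison described here set OT-I CD8+ T cells taken after injection of TER119-SIINFEKL, an antigen that binds erythrocytes, against OT-I cells taken after saline (Naive), over all genes of the deposited expression table. It set 6 of the 14 libraries of the series against each other, assigned by their labels, with 3 libraries in each group. Of 10106 genes in the table, 9793 had a mean of at least 1 RPKM (reads per kilobase, corrected for library size) over the 14 libraries and were tested. The OT-I donor cells carried a transgenic T cell receptor and the CD45.1 marker, were labelled with the division dye CFSE, and entered CD45.2+ C57BL/6 recipients on day 0. The age given for the animals was 8 to 12 weeks. TER119-SIINFEKL mice received 223 pmol of SIINFEKL peptide in erythrocyte-targeted form by vein on day 1, and Naive mice received saline. Spleens were taken on day 4 in both groups, and viable CD3e+ CD8+ CD45.1+ cells were sorted after red cells had been lysed. The other groups of the series received ERY1-OVA (erythrocyte-targeted ovalbumin, 3 libraries), OVA (soluble ovalbumin, 3 libraries) or free SIINFEKL peptide (2 libraries). Their levels are given only where TER119-SIINFEKL is set against them. Unless a fit is said to leave them out, their libraries also entered the shared spread behind each standard error and adjusted p. All cells had 1 T cell receptor specificity, so the groups do not represent a polyclonal response.

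SIINFEKL is the peptide of ovalbumin that the OT-I receptor recognises on the MHC class I molecule H-2Kb. The TER119 antibody binds an antigen on mouse erythrocytes, and antigen carried by erythrocytes reaches the spleen and liver, where phagocytes clear ageing red cells and present their contents. Antigen seen without inflammatory costimulation is known to make CD8+ T cells divide for a time and then lose function or die, states described as anergy, exhaustion or deletion. Such cells are known for high inhibitory receptors, for transcription factors of the EGR, NR4A and NFAT families, and for weak production of effector molecules.

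Of the 9793 genes tested, 4657 (47.6%) differed between TER119-SIINFEKL and Naive at an adjusted p under 0.05. Among them 2406 genes (24.6%) were higher and 2251 (23.0%) lower, and each count of a gene group given here stands against these shares. The rise side held more of the large changes: 724 genes (7.39%) rose at least 2-fold and 171 (1.75%) at least 8-fold, while 525 (5.36%) fell at least 2-fold and 10 (0.102%) at least 8-fold. The filter bears on this, since only 3 of the 14 libraries averaged were Naive. A gene expressed only in Naive cells needed a higher level to be kept than a gene shared by the antigen groups. Without the filter 2460 genes were called higher and 2341 lower. The median log2 fold change of all genes tested was -0.00. The values of the groups did not overlap in 2902 genes (29.6%) that lay higher and 2778 (28.4%) that lay lower. Among called genes these were 2355 of those higher and 2180 of those lower, so a lack of overlap adds little for a called gene. Fold changes are differences of mean log2 RPKM, TER119-SIINFEKL minus Naive, with the standard error (SE) from limma, and adjusted p is limma's after Benjamini-Hochberg adjustment over all genes tested. The labels do not say whether libraries of a group came from separate mice, so p-values measure the spread between these samples, which may be technical. A paired fit, limma on the TER119-SIINFEKL and Naive libraries alone with replicate number as a block, called 2970 genes higher and 2741 lower, and its result is given beside a gene or list where it changed the call or moved a count by over 1.5 times. That fit was added after seeing the data, rests on 6 libraries alone, and assumes that same-numbered libraries of both groups are pairs. The block in the fit of all groups, planned beforehand, did not call Nr4a1, Nt5e, Dgka, Tcf7, Gzma, Il2, Eomes or Myc. In sorted pools of cells, a lower level per cell and fewer cells that express a gene cannot be told apart.

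The libraries carried the transcripts of CD8+ T cells. Cd3e stood at 387, 359 and 368 RPKM in TER119-SIINFEKL and 431, 407 and 405 RPKM in Naive libraries (log2 fold change -0.16 ± 0.09, adjusted p = 0.17). Cd4 did not pass 1.31 RPKM in any library of the comparison. Of the markers of other cells listed, Ms4a1 and Pax5 of B cells, Csf1r and Cd14 of macrophages, Ncr1 of NK cells and all listed neutrophil and platelet markers had no row in the table, and 2 of 6 B cell markers, 3 of 6 macrophage markers, 5 of 8 dendritic cell and MHC class II markers, 1 of 2 NK markers and 2 of 8 erythroid markers had one. Cd68 of macrophages was called higher, with 5.37, 6.12 and 6.60 RPKM in TER119-SIINFEKL and 3.24, 1.82 and 2.71 RPKM in Naive libraries (log2 fold change 1.26 ± 0.35, adjusted p = 0.009). Itgam, which myeloid and some T cells carry, had 19.5, 9.89 and 12.6 RPKM in TER119-SIINFEKL and 19.3, 11.8 and 16.5 RPKM in Naive libraries (adjusted p = 0.53), and Pecam1, of endothelium and some leukocytes, had 37.3, 42.8 and 33.6 RPKM in TER119-SIINFEKL and 28.7, 32.9 and 27.7 RPKM in Naive libraries (adjusted p = 0.053, and 0.0054 in the paired fit). Their part in the results was not tested. The summed erythroid markers, the haemoglobin genes Hba-a1 and Hba-a2, gave 20.32, 2.59 and 1.55 RPKM in TER119-SIINFEKL and 10.85, 9.07 and 7.54 RPKM in Naive libraries. TER119-SIINFEKL replicate 1 was thus the highest of the 6 and replicates 2 and 3 the lowest. That replicate stood apart in other ways too. Its correlation with replicates 2 and 3 over genes was 0.979 and 0.984, against 0.994 between those replicates, its values leaned towards short genes (Spearman -0.44 of its deviations with exon length), and its summed dendritic cell and MHC class II markers (36.62, against 12.15 and 14.17 RPKM) and Klrb1c (14.7, against 4.72 and 6.75 RPKM) were the highest of the group. On a principal component that held 63.6% of the variance, the TER119-SIINFEKL libraries lay at 25.0 to 30.8 and the Naive libraries at -61.3 to -55.9. The scaling totals read from steps between low values were about 42300000, 60700000 and 60100000 reads for TER119-SIINFEKL and 39200000, 42900000 and 38400000 reads for Naive libraries.

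Of the 40 gene lists, those of cell division had the highest medians. Of 56 mitosis genes tested, 55 were higher in TER119-SIINFEKL, none was lower, and the median log2 fold change was 4.72. Of 45 DNA replication genes, 44 were higher, with a median of 1.89. Every library of TER119-SIINFEKL lay above every Naive library for the named members of both lists. The promoters of 4 of these genes follow, 2 from each list, as examples of the words whose shares are given next. Each runs from 250 bases before to 50 bases after the annotated start, in RefSeq's table for GRCm38.p6, and capitals mark every match to TTTGAA (the core of the cell cycle homology region, CHR), CCAAT or an E2F word on either strand. All 4 hold CCAAT. The mitosis promoters of Ccnb2 (chr9:70421505-70421804, minus strand) and Kif4 (chrX:100625815-100626114, plus strand) also hold TTTGAA and no E2F word searched. The replication promoters of Mcm5 (chr8:75109259-75109558, plus strand) and Orc1 (chr4:108579204-108579503, plus strand) hold no TTTGAA. Mcm5 has the E2F words TTTCGCGC and, on the opposite strand, TTTGGCGC, which overlap, and Orc1 has TTTCGCGC on the opposite strand.
Ccnb2: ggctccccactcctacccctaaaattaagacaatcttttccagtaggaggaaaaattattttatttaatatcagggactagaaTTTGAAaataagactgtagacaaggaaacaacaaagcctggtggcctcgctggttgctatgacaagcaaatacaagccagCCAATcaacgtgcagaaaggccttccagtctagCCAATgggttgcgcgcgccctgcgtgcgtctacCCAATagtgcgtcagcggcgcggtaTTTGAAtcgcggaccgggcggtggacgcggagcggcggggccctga
Kif4: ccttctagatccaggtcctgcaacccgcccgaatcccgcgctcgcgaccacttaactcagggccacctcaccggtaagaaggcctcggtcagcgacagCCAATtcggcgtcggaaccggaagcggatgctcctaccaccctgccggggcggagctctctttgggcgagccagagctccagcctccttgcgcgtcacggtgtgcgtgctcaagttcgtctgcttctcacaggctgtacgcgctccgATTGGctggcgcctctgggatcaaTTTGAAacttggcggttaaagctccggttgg
Mcm5: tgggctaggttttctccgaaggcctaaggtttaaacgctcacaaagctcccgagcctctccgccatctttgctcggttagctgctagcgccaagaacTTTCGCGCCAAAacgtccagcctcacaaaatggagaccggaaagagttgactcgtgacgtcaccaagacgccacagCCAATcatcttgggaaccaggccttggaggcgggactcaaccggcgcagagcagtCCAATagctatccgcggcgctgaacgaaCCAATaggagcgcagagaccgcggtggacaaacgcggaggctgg
Orc1: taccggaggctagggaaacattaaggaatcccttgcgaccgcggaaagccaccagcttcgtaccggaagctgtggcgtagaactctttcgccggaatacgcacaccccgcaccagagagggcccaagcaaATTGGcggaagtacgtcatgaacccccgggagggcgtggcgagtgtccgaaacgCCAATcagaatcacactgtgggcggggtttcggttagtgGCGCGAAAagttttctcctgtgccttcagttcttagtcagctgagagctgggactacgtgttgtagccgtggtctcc

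Both strands of the promoters of 7742 of the 9793 genes were searched. TTTGAA was found in 34 of 48 mitosis promoters (70.8%), 7 of 35 DNA replication promoters (20.0%) and 14.5% of all promoters. CCAAT was found in 70.8%, 57.1% and 43.9% of the same sets, and both words together in 58.3% of mitosis, 11.4% of replication and 7.31% of all promoters. For CCAAT alone most lists lay below mitosis, but cholesterol genes (94.1%) and chaperones (73.3%) were among those above it. The 4 E2F words searched (TTTCCCGC, TTTCGCGC, TTTGCCGC and TTTGGCGC) were in 8.33% of mitosis promoters, 42.9% of replication promoters and 5.28% of all promoters. A word found is a description of the letters and not of binding.

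**Figure D1:**
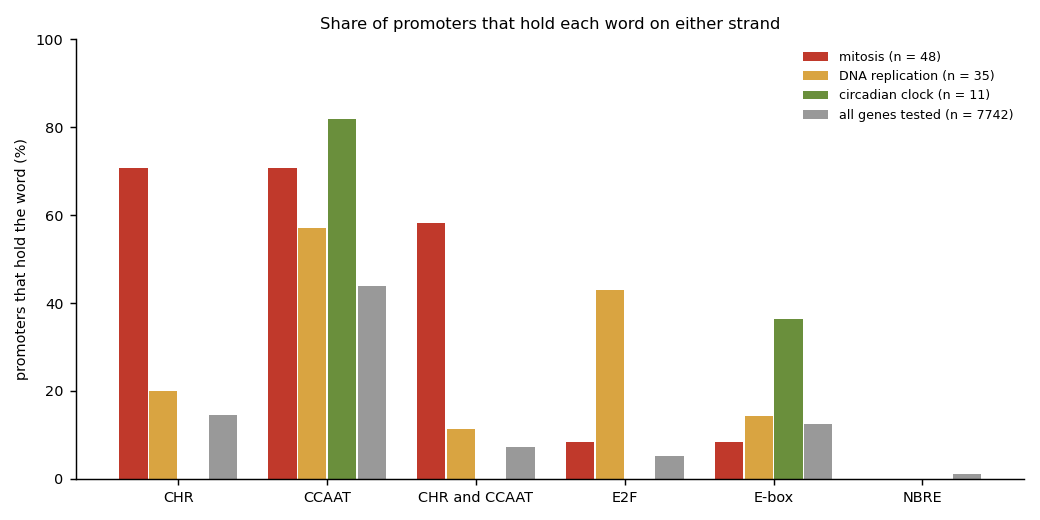
Bars give the share of promoters (%) that hold each word on either strand, for mitosis genes (n = 48), DNA replication genes (n = 35), circadian clock genes (n = 11) and all genes tested (n = 7742). TTTGAA (CHR) was in 70.8% of mitosis promoters and 14.5% of all promoters, and the E2F words were in 42.9% of replication promoters and 5.28% of all promoters.

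Ccnb1, the cyclin that with Cdk1 starts mitosis, had 34.1, 47.9 and 43.2 RPKM in TER119-SIINFEKL and 1.28, 1.12 and 1.32 RPKM in Naive libraries (log2 fold change 5.06 ± 0.33, adjusted p = 2.8e-07). Ccnb2, its relative, rose to 74.7, 79.7 and 82.1 RPKM in TER119-SIINFEKL libraries, against 1.97, 1.67 and 1.88 RPKM in Naive libraries (5.42 ± 0.47). Kif4, a kinesin that works on chromosome arms and the central spindle, showed the largest rise of the list at 5.66 ± 0.50, with 9.91, 14.1 and 12.4 RPKM in TER119-SIINFEKL and 0.149, 0.268 and 0.336 RPKM in Naive libraries. That rank depended on the settings of the fit. Over the alternative settings Kif4 ran from 3.38 to 5.91 and Ccnb2 from 4.81 to 5.48. Kif20a and Prc1, which build the midzone of the dividing cell, rose by 4.69 ± 0.37 and 4.47 ± 0.32. Hmmr, a spindle protein, rose by 5.55 ± 0.52. Smc2, a subunit of condensin, rose less, by 2.05 ± 0.14, and had 26.3, 32.1 and 31.1 RPKM in TER119-SIINFEKL and 7.14, 7.86 and 6.56 RPKM in Naive libraries. Mki67, the proliferation antigen Ki-67, reached 29.2, 74.8 and 63.4 RPKM in TER119-SIINFEKL libraries, against 1.6, 1.48 and 2.35 RPKM in Naive libraries. Replicate 1 was the lowest of the 3 there but still far above the Naive libraries (log2 fold change 4.87 ± 0.55, adjusted p = 1.3e-05).

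Replication factors rose too. Mcm5, part of the helicase that opens DNA for replication, had 97.2, 116 and 124 RPKM in TER119-SIINFEKL and 17.5, 20.3 and 18 RPKM in Naive libraries (log2 fold change 2.59 ± 0.15, adjusted p = 1.6e-07). Mcm3 and Mcm7 of the same helicase rose by 2.07 ± 0.15 and 2.06 ± 0.13, and Rfc5, of the clamp loader, by 1.88 ± 0.11. Mcm10 and Orc1, which act at origins, were near 0 RPKM in Naive cells and rose by 4.95 ± 0.48 and 4.26 ± 0.36. Over the alternative settings of the fit Mcm10 ran from 3.04 to 5.13, Orc1 from 2.3 to 4.42 and Mcm5 from 2.51 to 2.75. Orc1 stood at 5.21, 4.92 and 5.85 RPKM in TER119-SIINFEKL and 0.264, 0.334 and 0.244 RPKM in Naive libraries. The E2F factors and G1/S regulators split: 15 of 24 were higher and 4 lower. E2f1, an activator of replication genes, rose by 2.33 ± 0.20 and its partner Tfdp1 by 1.95 ± 0.15. E2f7 and E2f8, repressors of the family, rose by 4.54 ± 0.63 and 5.82 ± 0.68, and E2f8 had 7.43, 16.2 and 14.1 RPKM in TER119-SIINFEKL and 0.101, 0.196 and 0.48 RPKM in Naive libraries. Over the alternative settings E2f7 ran from 1.76 to 4.99, E2f8 from 3.38 to 6.41 and E2f1 from 1.86 to 2.6. Ccne1, the cyclin of entry into S phase, rose to 16.6, 22 and 23.1 RPKM in TER119-SIINFEKL libraries, against 5.34, 5.76 and 4.98 RPKM in Naive libraries. Ccnd2 and Ccnd3, the cyclins of early G1, changed by -0.89 ± 0.15 and -0.54 ± 0.12 on the log2 scale, as did the inhibitor Cdkn1b (p27, -0.79 ± 0.17) and the pocket protein Rbl2 (-0.33 ± 0.11). Ccnd2 measured 71, 58.9 and 61.3 RPKM in TER119-SIINFEKL and 112, 141 and 104 RPKM in Naive libraries. The groups did not overlap for any of these 4 that fell.

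Supply of nucleotides and repair of DNA followed. Of 33 nucleotide synthesis genes 23 were higher and 4 lower (median 0.73). Tk1, thymidine kinase, rose to 47.7, 55.2 and 57.8 RPKM in TER119-SIINFEKL libraries, against 1.71, 0.894 and 1.23 RPKM in Naive libraries (log2 fold change 5.43 ± 0.46, adjusted p = 1.4e-06). Rrm1 and Rrm2, the subunits of ribonucleotide reductase, rose by 2.81 ± 0.16 and 4.61 ± 0.38, and Dut and Shmt1 by 2.33 ± 0.19 and 2.05 ± 0.15. Among 36 repair and checkpoint genes 27 were higher and 1 lower (median 1.10), with 2 lower in the paired fit. Rad54l, a homologous recombination factor, had 6.27, 10.7 and 10.9 RPKM in TER119-SIINFEKL and 0.318, 0.323 and 0.325 RPKM in Naive libraries (log2 fold change 4.80 ± 0.47, adjusted p = 4.2e-06). Exo1, Fanci, Rad51ap1 and the histone variant H2afx rose by 4.01 ± 0.32, 2.83 ± 0.27, 4.52 ± 0.62 and 1.74 ± 0.15. Without Naive replicate 2 the rise of Rad51ap1 was 3.75, and Exo1 ran from 1.86 to 4.24 over the alternative settings. Chromatin and DNA methylation enzymes gave 25 of 50 higher and 8 lower (median 0.43). Uhrf1, which brings the maintenance methyltransferase to replicated DNA, rose to 52.8, 91.2 and 88.1 RPKM in TER119-SIINFEKL libraries, against 5.76, 6.68 and 6.11 RPKM in Naive libraries (log2 fold change 3.61 ± 0.36, adjusted p = 4.7e-06). Hells, Asf1b, Ezh2 (the methyltransferase of Polycomb complex PRC2) and Hmgb2 rose by 3.33 ± 0.20, 3.05 ± 0.24, 2.77 ± 0.22 and 3.29 ± 0.23. Nuclear pore and transport genes gave 23 of 47 higher and 3 lower, with the importin Kpna2 at 122, 150.1 and 127 RPKM in TER119-SIINFEKL and 17, 22.6 and 16.6 RPKM in Naive libraries (log2 fold change 2.83 ± 0.19, adjusted p = 3.3e-07), Rcc1 at 1.76 ± 0.14 and Nup93 at 1.04 ± 0.12. Ranbp6, an importin relative, changed by -1.33 ± 0.16.

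**Figure D2:**
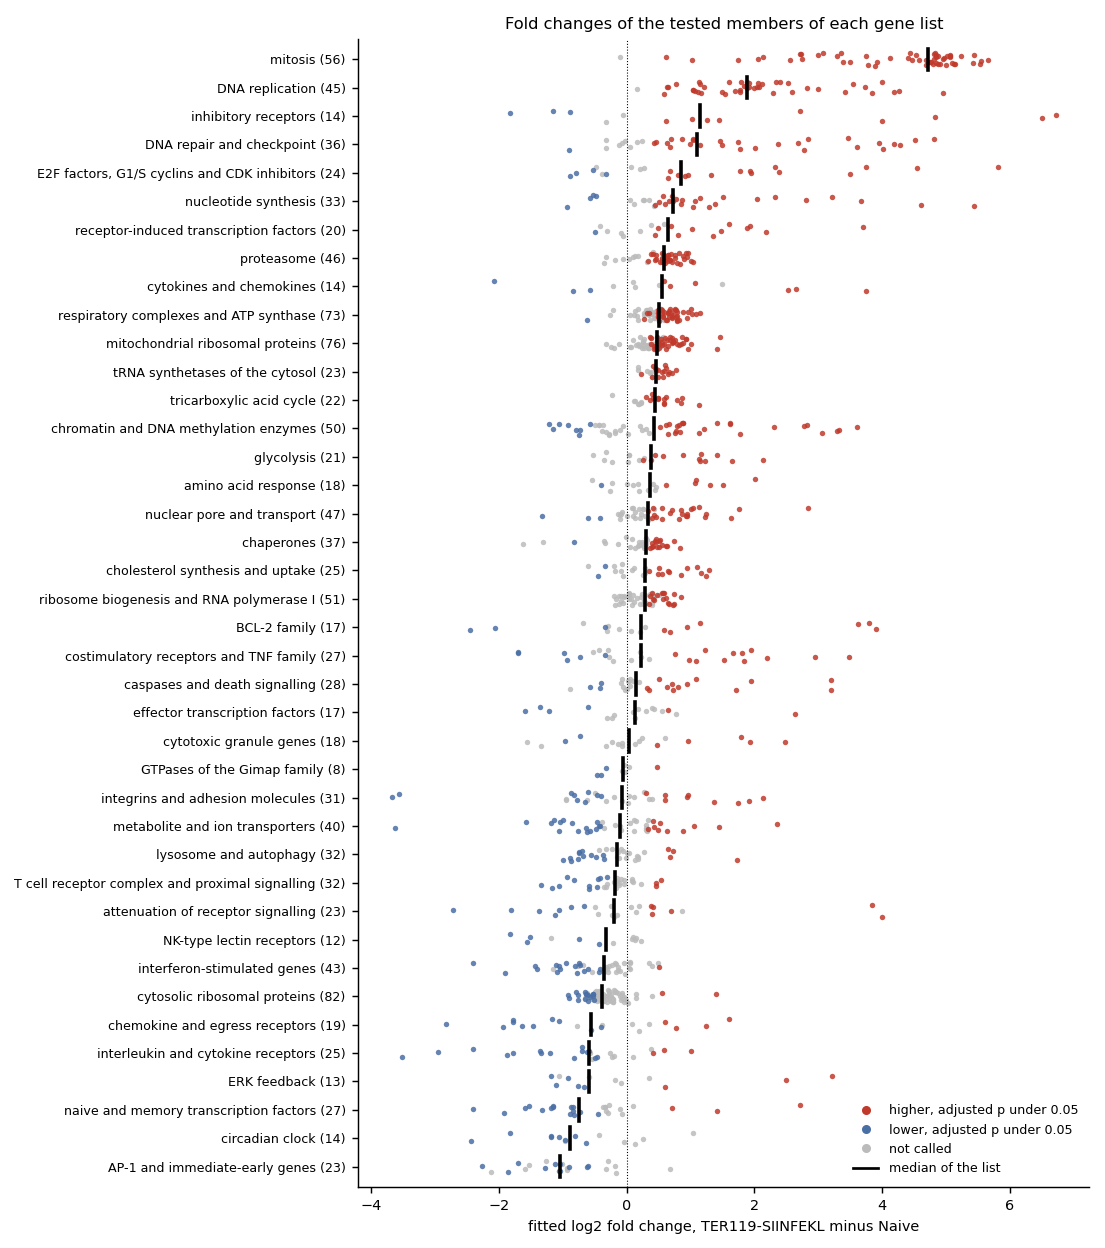
Each point is a tested gene at its fitted log2 fold change, TER119-SIINFEKL minus Naive, in the row of its list (number tested in brackets), red where called higher, blue where called lower and grey where not called, with a black bar at the median. Mitosis (55 of 56 higher) and DNA replication (44 of 45 higher) lead the rises, and interleukin and cytokine receptors (15 of 25 lower) and naive and memory transcription factors (15 of 27 lower) hold many of the falls.

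Among receptors on the cell surface, the inhibitory ones were foremost. Of 14 tested, 9 were higher and 3 lower, with a median of 1.14, and 8 rose at least 2-fold. Lag3 (chr6:124904361-124911705, minus strand, GRCm38), a receptor that binds MHC class II, had 58.9, 78.2 and 65.3 RPKM in TER119-SIINFEKL and 0.793, 0.492 and 0.653 RPKM in Naive libraries. The TER119-SIINFEKL libraries lay far above the Naive libraries, with a log2 fold change of 6.72 ± 0.63 (adjusted p = 2.8e-06), which was the largest rise of all genes tested. Pdcd1 (chr1:94038305-94052553, minus strand, GRCm38), which encodes PD-1, had 33.9, 32.2 and 32 RPKM in TER119-SIINFEKL and 0.294, 0.378 and 0.421 RPKM in Naive libraries. Its 3 TER119-SIINFEKL values lay close together and above all Naive values (log2 fold change 6.50 ± 0.59, adjusted p = 2.4e-06). Lag3 ran from 5.37 to 6.89 and Pdcd1 from 4.63 to 6.62 over the alternative settings. Ctla4, a competitor of CD28 for its ligands, reached 53.9, 72.5 and 63.5 RPKM in TER119-SIINFEKL libraries, against 1.85, 1.36 and 4.38 RPKM in Naive libraries (log2 fold change 4.82 ± 0.43, adjusted p = 1.8e-06). Tigit reached 9.73, 10.9 and 9.67 RPKM in TER119-SIINFEKL libraries, against 1.2, 0.925 and 3.33 RPKM in Naive libraries (log2 fold change 2.71 ± 0.36, adjusted p = 5.3e-05). Cd200, a ligand of an inhibitory receptor, had 50.5, 51.2 and 45.1 RPKM in TER119-SIINFEKL and 3.06, 2.54 and 3.65 RPKM in Naive libraries (4.00 ± 0.42). The members that fell were 4632428N05Rik (-1.16 ± 0.12), which encodes VISTA, Cd72 (-0.88 ± 0.30) and Klrg1 (-1.82 ± 0.68). 4632428N05Rik stood at 60.7, 50.04 and 54.2 RPKM in TER119-SIINFEKL and 120.3, 126 and 122 RPKM in Naive libraries. Without Naive replicate 1, Naive replicate 2 or TER119-SIINFEKL replicate 2, 1 member was lower. Havcr2 (TIM-3), a core gene, had no row and was not tested.

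Receptors that costimulate moved as well, in both directions. Of 27 in this list 12 were higher and 6 lower (median 0.22). Tnfrsf9, the TNF family receptor 4-1BB, had 99, 66.6 and 75.3 RPKM in TER119-SIINFEKL and 9.47, 7.91 and 14.4 RPKM in Naive libraries (log2 fold change 2.95 ± 0.27, adjusted p = 2.6e-06). Tnfsf11, the ligand RANKL, rose to 3.75, 4.82 and 4.5 RPKM in TER119-SIINFEKL libraries, against 0.482, 0.315 and 0.387 RPKM in Naive libraries (3.48 ± 0.51), and Tnfsf14, the ligand LIGHT, rose to 27.9, 27.2 and 23.8 RPKM in TER119-SIINFEKL libraries, against 5.78, 7.0 and 7.95 RPKM in Naive libraries (1.94 ± 0.18). Icos, a relative of CD28, had 56.7, 67.9 and 55.6 RPKM in TER119-SIINFEKL and 18.4, 18.9 and 19.4 RPKM in Naive libraries (1.67 ± 0.14). Slamf6 and Slamf7, self-binding receptors of lymphocytes, rose by 2.19 ± 0.17 and 1.84 ± 0.16, and Crtam, an adhesion receptor of activated CD8+ cells, by 1.81 ± 0.10. The groups did not overlap for any of these 7 genes. Cd44, an activation marker, rose by 1.23 ± 0.14. The ligands Cd40lg, Fasl and Tnfsf10 changed by -1.71 ± 0.18, -1.70 ± 0.42 and -0.74 ± 0.19 on the log2 scale, and the receptors Tnfrsf26, Tnfrsf25 and Tnfrsf1a by -0.98 ± 0.12, -0.94 ± 0.32 and -0.35 ± 0.11. Cd69, an early activation marker, had 41, 36.9 and 92.2 RPKM in TER119-SIINFEKL and 66.6, 50.2 and 104 RPKM in Naive libraries and did not pass the test (adjusted p = 0.58, and 0.0065 in the paired fit). Replicate 3 was the highest of each group for Cd69.

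**Figure D3:**
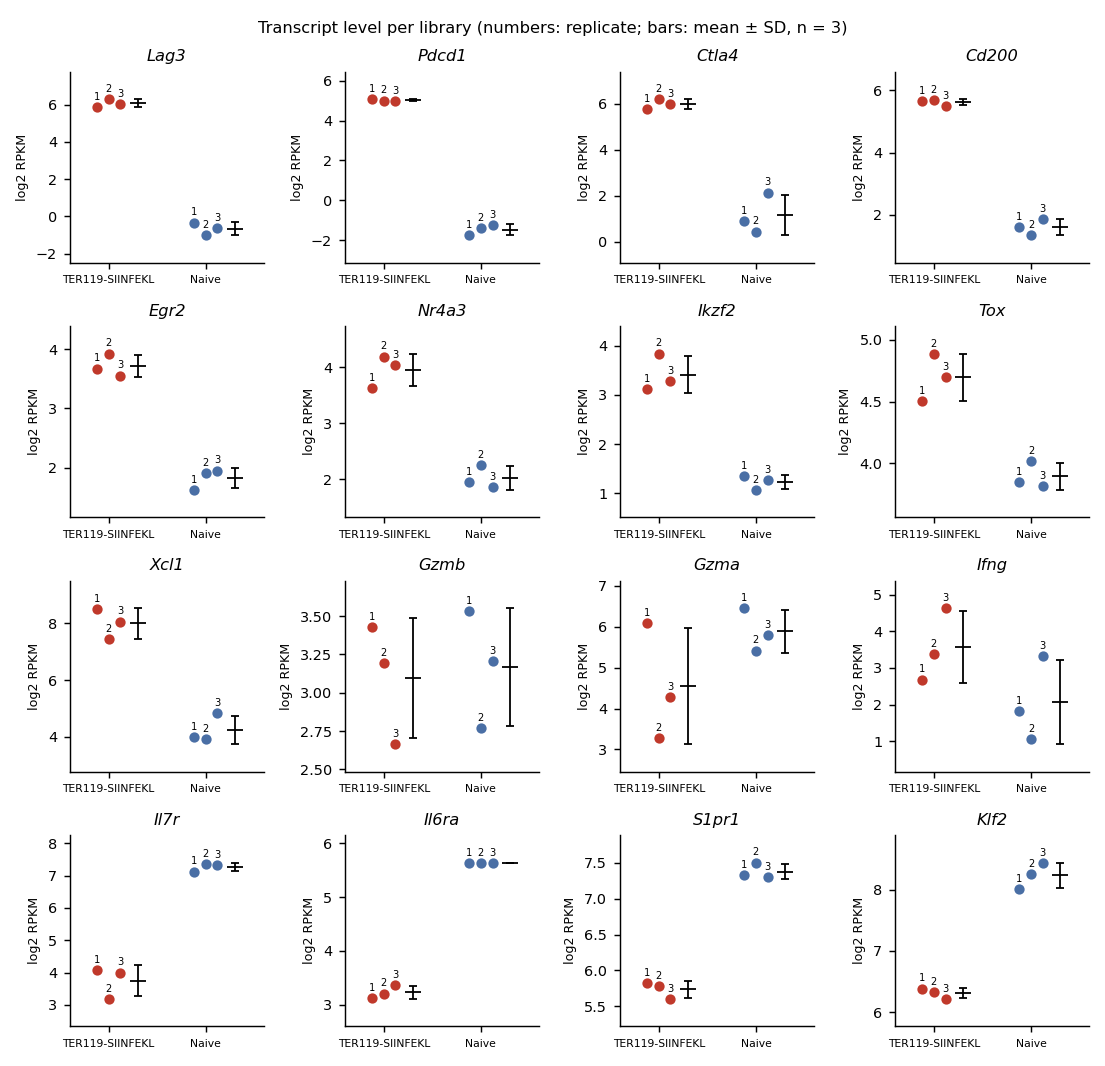
Each panel plots log2 RPKM for 1 gene, with a numbered point per library and bars at mean ± SD (n = 3), TER119-SIINFEKL left of Naive. Lag3, Pdcd1, Ctla4, Cd200, Egr2, Nr4a3, Ikzf2, Tox and Xcl1 lie higher in all 3 TER119-SIINFEKL libraries, Il7r, Il6ra, S1pr1 and Klf2 lie lower, and Gzmb, Gzma and Ifng overlap.

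The T cell receptor machinery itself was lower at several points. Of 32 genes of the receptor complex and its proximal signalling 3 were higher and 11 lower (median -0.18). Under quantile normalization 19 were lower. Malt1, the paracaspase between the receptor and NF-kappaB, had 12.3, 12.8 and 12.3 RPKM in TER119-SIINFEKL and 32.9, 31.8 and 30.4 RPKM in Naive libraries (log2 fold change -1.34 ± 0.11, adjusted p = 1e-06). Cd8b1, the beta chain of the coreceptor, fell to 570.1, 482 and 536 RPKM in TER119-SIINFEKL libraries, against 1038, 960.1 and 1048 RPKM in Naive libraries, and its log2 fold change was -0.94 ± 0.11. Cd8a, the alpha chain, changed by -0.45 ± 0.10 on that scale, and the adaptor Grap2 by -0.83 ± 0.10. In all 4 genes the 3 values of each group stayed apart.

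Transcription factors known to be induced through the receptor were mostly higher, and 7 were not called. Of 20 tested 12 were higher and 1, Nfatc2, was lower (median 0.64). The count lower was 0 without Naive replicate 2 or 3 or TER119-SIINFEKL replicate 1 or 3, and 2 without OVA replicate 1, ERY1-OVA replicate 1 or TER119-SIINFEKL replicate 2. The paired fit called 3 lower. Egr2, a zinc finger factor tied to anergy, had 12.8, 15.2 and 11.7 RPKM in TER119-SIINFEKL and 3.09, 3.75 and 3.88 RPKM in Naive libraries (log2 fold change 1.89 ± 0.14, adjusted p = 6e-07). Egr3, its relative, had 25.1, 26.1 and 25.1 RPKM in TER119-SIINFEKL and 9.68, 10.5 and 7.42 RPKM in Naive libraries (log2 fold change 1.48 ± 0.31, adjusted p = 0.0018). Egr1, of the same family, showed 25.6, 25.4 and 25.6 RPKM in TER119-SIINFEKL and 21.3, 20.6 and 24.8 RPKM in Naive libraries and did not pass (adjusted p = 0.31). The nuclear receptor Nr4a3 had 12.4, 18.3 and 16.4 RPKM in TER119-SIINFEKL and 3.85, 4.77 and 3.62 RPKM in Naive libraries (log2 fold change 1.93 ± 0.19, adjusted p = 4e-06), and Nr4a1, another of that family, had 27.8, 44.4 and 53 RPKM in TER119-SIINFEKL and 20.1, 24 and 39.7 RPKM in Naive libraries with overlapping groups (log2 fold change 0.59 ± 0.41, adjusted p = 0.25, and 0.0018 in the paired fit). Irf4 and Batf, which act together at AP-1 sites, rose by 3.70 ± 0.26 and 1.34 ± 0.16, and Irf4 had 15.3, 31 and 21.2 RPKM in TER119-SIINFEKL and 1.64, 1.53 and 1.82 RPKM in Naive libraries. Ikzf2, the Ikaros family factor Helios, had 8.68, 14.3 and 9.71 RPKM in TER119-SIINFEKL and 2.54, 2.1 and 2.41 RPKM in Naive libraries (2.18 ± 0.28). Tox, a factor of exhausted cells, had 22.6, 29.6 and 26 RPKM in TER119-SIINFEKL and 14.4, 16.2 and 14.1 RPKM in Naive libraries (log2 fold change 0.80 ± 0.15, adjusted p = 0.00093). Nfatc1 rose by 0.69 ± 0.21 (adjusted p = 0.016), a call that was lost without Naive replicate 1 or TER119-SIINFEKL replicate 2. Myc had 50.5, 67.2 and 74.5 RPKM in TER119-SIINFEKL and 73.5, 77.6 and 83.8 RPKM in Naive libraries and did not pass the test (adjusted p = 0.24, and 0.02 in the paired fit).

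The AP-1 and immediate-early genes lay on the other side. Of 23 tested none was higher and 11 were lower, with a median of -1.04. The paired fit called 18 lower and 1 higher. Jun, an AP-1 subunit, had 11.5, 15.5 and 34.7 RPKM in TER119-SIINFEKL and 63.2, 75.9 and 143 RPKM in Naive libraries (log2 fold change -2.26 ± 0.62, adjusted p = 0.0087). Junb, another subunit, had 71.1, 77.2 and 156 RPKM in TER119-SIINFEKL and 278, 251 and 589.9 RPKM in Naive libraries (log2 fold change -1.86 ± 0.55, adjusted p = 0.013), and its call was lost without Naive replicate 3. Replicate 3 was the highest library of both groups for each of them, yet the groups did not overlap. Fos had 27.2, 32.9 and 139.8 RPKM in TER119-SIINFEKL and 188, 132 and 418 RPKM in Naive libraries, and its log2 fold change of -2.12 ± 0.85 did not pass (adjusted p = 0.053). It passed in the paired fit (adjusted p = 4.6e-05), and at 0.0058 with the block in the fit of all groups. Fosb had 3.17, 3.98 and 31.3 RPKM in TER119-SIINFEKL and 16.1, 3.37 and 50.8 RPKM in Naive libraries and overlapped between the groups (adjusted p = 0.58). Btg1, an antiproliferative gene, had 99.1, 82.8 and 84.3 RPKM in TER119-SIINFEKL and 204, 223 and 219.8 RPKM in Naive libraries with little spread (log2 fold change -1.28 ± 0.13, adjusted p = 4.8e-06). Mafk, Ier2 and Zfp36l2 changed by -0.91 ± 0.18, -1.05 ± 0.24 and -1.04 ± 0.24 on the log2 scale. That replicate 3 was high in both groups was measured, and its part in the result was not tested.

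**Figure D4:**
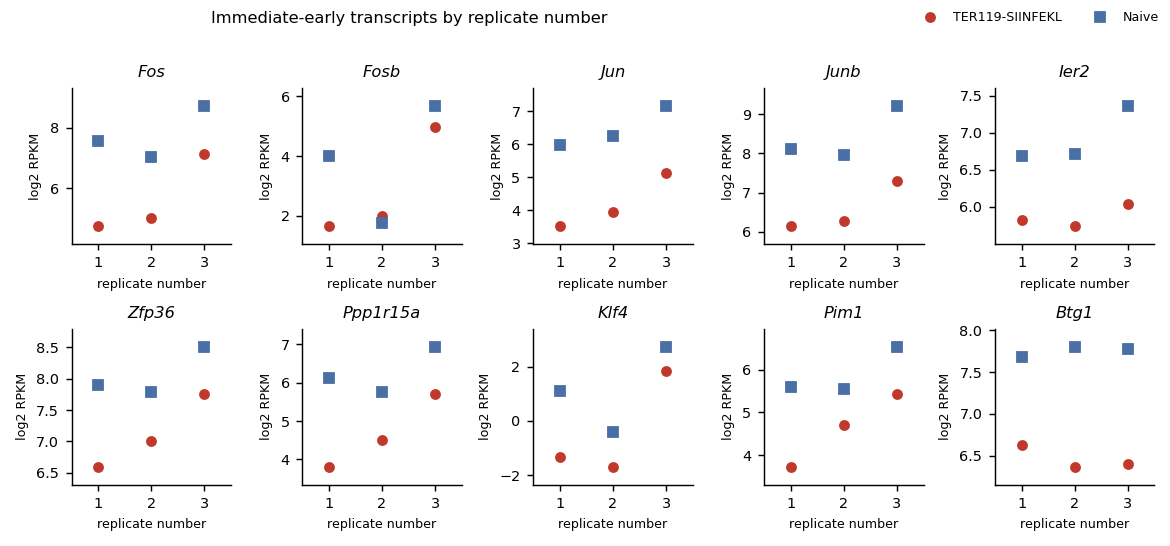
Each panel plots log2 RPKM against replicate number for 1 immediate-early gene, with a red circle per TER119-SIINFEKL library and a blue square per Naive library. Fos, Fosb, Jun, Junb and Klf4 are highest in replicate 3 of both groups, and the 3 TER119-SIINFEKL values of Jun, 11.5 to 34.7 RPKM, stay below the Naive values, 63.2 to 143 RPKM.

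The list of genes that attenuate receptor signalling also held the anergy markers Folr4 and Nrp1, and its members did not move together. Of 23 tested 6 were higher and 7 lower (median -0.20). The 2 that rose at least 2-fold were Folr4 and Nrp1. Folr4, the folate receptor-like protein FR4 of anergic T cells, had 167, 111 and 110.5 RPKM in TER119-SIINFEKL and 10.1, 7.28 and 6.79 RPKM in Naive libraries (log2 fold change 4.00 ± 0.26, adjusted p = 2.7e-07). Nrp1, neuropilin-1, had 6.47, 14 and 8.73 RPKM in TER119-SIINFEKL and 0.74, 0.66 and 0.552 RPKM in Naive libraries (log2 fold change 3.84 ± 0.70, adjusted p = 0.00061). Nt5e, the ecto-enzyme CD73, had 4.73, 5.95 and 5.01 RPKM in TER119-SIINFEKL and 6.25, 6.51 and 9.69 RPKM in Naive libraries and did not pass (adjusted p = 0.27, and 0.036 in the paired fit). Cblb, a ubiquitin ligase that restrains T cells, had 21, 32.5 and 26 RPKM in TER119-SIINFEKL and 18.7, 21.9 and 18.9 RPKM in Naive libraries. Its log2 fold change was 0.40 ± 0.15 (adjusted p = 0.043), and the call did not hold with the block in the fit of all groups (0.056) or without Naive replicate 1 or 3, OVA replicate 2 or 3, ERY1-OVA replicate 3 or TER119-SIINFEKL replicate 2 or 3. Dgka, a diacylglycerol kinase, had 174, 194 and 201 RPKM in TER119-SIINFEKL and 224, 227 and 218 RPKM in Naive libraries (adjusted p = 0.09, and 0.035 in the paired fit). The membrane adaptor Pag1, the adaptor Sla2 and the cytokine signalling inhibitors Socs1 and Socs3 changed by -1.38 ± 0.15, -0.87 ± 0.14, -1.81 ± 0.23 and -2.73 ± 0.45 on the log2 scale. Socs3 had 3.74, 4.89 and 9.19 RPKM in TER119-SIINFEKL and 29.4, 33.4 and 49.8 RPKM in Naive libraries. The ubiquitin ligase Rnf128 (GRAIL) had no row in the table. Feedback inhibitors of the ERK pathway split in the same manner, with 3 of 13 higher and 5 lower (median -0.59). Spry1 and Dusp4 rose by 3.22 ± 0.42 and 2.50 ± 0.49, while Dusp7 and Dusp10 changed by -0.92 ± 0.18 and -0.66 ± 0.13. Without TER119-SIINFEKL replicate 2 the count lower was 3.

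Among secreted products, several chemokines rose. Of 14 cytokine and chemokine genes tested 6 were higher and 3 lower (median 0.55). Xcl1, the chemokine for cross-presenting dendritic cells, had 362, 173 and 268 RPKM in TER119-SIINFEKL and 15.9, 15.1 and 28.4 RPKM in Naive libraries (log2 fold change 3.75 ± 0.33, adjusted p = 1.8e-06). Ccl4 had 49.6, 44.4 and 49.9 RPKM in TER119-SIINFEKL and 7.2, 6.08 and 13 RPKM in Naive libraries (log2 fold change 2.53 ± 0.38, adjusted p = 0.00012) and Ccl3 had 7.23, 15.9 and 20.7 RPKM in TER119-SIINFEKL and 1.51, 1.5 and 4.19 RPKM in Naive libraries (2.66 ± 0.51). Every TER119-SIINFEKL library lay above every Naive library for these 3 genes. Ccl5, another chemokine, went the other way with 294, 59.8 and 138 RPKM in TER119-SIINFEKL and 493, 440.3 and 851 RPKM in Naive libraries (log2 fold change -2.08 ± 0.53, adjusted p = 0.0059). Tnf had 11.9, 13 and 11.8 RPKM in TER119-SIINFEKL and 6.0, 4.76 and 6.82 RPKM in Naive libraries (log2 fold change 1.07 ± 0.28, adjusted p = 0.0068) and Lta, lymphotoxin alpha, rose by 0.58 ± 0.11. Ltb, its partner, changed by -0.85 ± 0.17, and Flt3l changed by -0.57 ± 0.19. Ifng, interferon gamma, had 6.41, 10.5 and 24.8 RPKM in TER119-SIINFEKL and 3.51, 2.09 and 10.1 RPKM in Naive libraries, with replicate 3 the highest of each group. The groups overlapped and its log2 fold change of 1.498 ± 0.78 did not pass (adjusted p = 0.13), whereas it passed in the paired fit (adjusted p = 0.0011), and at 0.026 with the block in the fit of all groups. Il2, a growth factor of T cells, had 6.02, 4.32 and 5.21 RPKM in TER119-SIINFEKL and 3.35, 3.18 and 4.4 RPKM in Naive libraries (adjusted p = 0.076, and 0.028 in the paired fit).

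The killing machinery was mixed. Of 18 cytotoxic granule genes 5 were higher and 2 lower, and the median was 0.03. Gzmb, granzyme B, had 10.8, 9.15 and 6.33 RPKM in TER119-SIINFEKL and 11.6, 6.81 and 9.24 RPKM in Naive libraries and its groups overlapped (log2 fold change -0.07 ± 0.40, adjusted p = 0.89). Gzma, granzyme A, had 68.3, 9.68 and 19.5 RPKM in TER119-SIINFEKL and 87.7, 42.7 and 55.5 RPKM in Naive libraries, with TER119-SIINFEKL replicate 1 above the other replicates of its group (log2 fold change -1.34 ± 0.64, adjusted p = 0.1, and 0.0032 in the paired fit). Without that replicate Gzma gave -2.11 and passed the test. Prf1, perforin, had 24.9, 17 and 19.3 RPKM in TER119-SIINFEKL and 35.5, 42.8 and 40.1 RPKM in Naive libraries (log2 fold change -0.97 ± 0.20, adjusted p = 0.0014), and all 3 TER119-SIINFEKL values lay below the Naive values. Ctsw, a protease of killer cells, changed by -0.73 ± 0.17. Gzmk rose to 2.08, 3.87 and 2.88 RPKM in TER119-SIINFEKL libraries, against 0.837, 0.852 and 0.781 RPKM in Naive libraries (1.79 ± 0.38). The rises in the list included genes that limit or shape granule action: Serpinb6b, a serpin, rose to 80.4, 69.4 and 74.7 RPKM in TER119-SIINFEKL libraries, against 12.5, 13.9 and 13.9 RPKM in Naive libraries (log2 fold change 2.48 ± 0.18, adjusted p = 4.9e-07), Stx11, a syntaxin of granule release, rose by 1.93 ± 0.18, and Serpinb6a and Lamp2 rose by 0.97 ± 0.24 and 0.47 ± 0.17. Without TER119-SIINFEKL replicate 1 or either SIINFEKL library, 4 members were lower, and the paired fit called 6 lower. Of 12 NK-type lectin receptors none was higher and 5 were lower: Klra9, Klrd1, Klre1, Klrg1 and Clec2i. Klrd1, the CD94 chain, had 158, 77.5 and 102 RPKM in TER119-SIINFEKL and 219, 157 and 171 RPKM in Naive libraries, and replicate 1 of TER119-SIINFEKL overlapped the Naive values. These calls were fragile, since 0 were lower without Naive replicate 1 or TER119-SIINFEKL replicate 2 and 2 without Naive replicate 3 or TER119-SIINFEKL replicate 3.

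Factors of effector cells were mixed. Of 17 tested 2 were higher and 4 lower. The count higher was 4 without either SIINFEKL library and 6 in the paired fit. Tbx21 (T-bet) had 17.3, 20.4 and 16.8 RPKM in TER119-SIINFEKL and 13.4, 13.7 and 17.2 RPKM in Naive libraries (adjusted p = 0.28) and Eomes had 31.4, 43.6 and 39.8 RPKM in TER119-SIINFEKL and 20.1, 26 and 33 RPKM in Naive libraries (adjusted p = 0.22, and 0.0023 in the paired fit), and neither passed. Irf8 rose to 14.4, 22.2 and 19.9 RPKM in TER119-SIINFEKL libraries, against 2.11, 2.78 and 4.6 RPKM in Naive libraries (log2 fold change 2.63 ± 0.25, adjusted p = 2.8e-06), and Hif1a, the hypoxia factor, rose by 0.64 ± 0.16. Id2, an inhibitor of E proteins, fell to 28.2, 15.5 and 20.8 RPKM in TER119-SIINFEKL libraries, against 52.9, 39.8 and 55.2 RPKM in Naive libraries (log2 fold change -1.22 ± 0.24, adjusted p = 0.00094), and Rora, Zeb2 and Runx3 changed by -1.60 ± 0.20, -1.36 ± 0.40 and -0.61 ± 0.16. Prdm1 (Blimp-1) lay below the filter and was not tested.

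Factors of naive and memory cells were mostly lower. Of 27 tested 15 were lower and 3 higher, with a median of -0.74. Klf2, which keeps naive T cells quiescent and recirculating, had 83.5, 80.5 and 74.4 RPKM in TER119-SIINFEKL and 259, 306 and 345 RPKM in Naive libraries (log2 fold change -1.92 ± 0.14, adjusted p = 5.6e-07). Klf3 changed by -1.52 ± 0.12 on the log2 scale and Lef1, a WNT pathway factor, changed by -1.16 ± 0.13, with 70.9, 71.2 and 65.7 RPKM in TER119-SIINFEKL and 156, 157 and 150.1 RPKM in Naive libraries. Smad7, an inhibitor of TGF-beta signalling, had 8.85, 11.2 and 13.2 RPKM in TER119-SIINFEKL and 52.7, 57.4 and 64.7 RPKM in Naive libraries (log2 fold change -2.41 ± 0.19, adjusted p = 9e-07). All TER119-SIINFEKL values of these 4 genes lay below all Naive values. Tcf7, which encodes TCF-1, had 561, 586 and 566 RPKM in TER119-SIINFEKL and 677, 742 and 764 RPKM in Naive libraries; its 3 TER119-SIINFEKL values were below the Naive values, but the difference of -0.35 ± 0.15 did not pass (adjusted p = 0.067). In the paired fit it passed (adjusted p = 0.012). The 3 members that rose were Myb, Id3 and Gfi1. Myb, a factor of self-renewing cells, had 19.7, 24.3 and 22.9 RPKM in TER119-SIINFEKL and 2.77, 3.3 and 4.22 RPKM in Naive libraries (log2 fold change 2.72 ± 0.21, adjusted p = 7.5e-07), Id3 had 149, 102 and 91.1 RPKM in TER119-SIINFEKL and 42.9, 42.4 and 39.5 RPKM in Naive libraries (1.42 ± 0.25), and Gfi1 rose by 0.71 ± 0.15.

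Cytokine receptors were mostly lower. Of 25 interleukin and cytokine receptor genes 15 were lower and 3 higher (median -0.59), against 23.0% lower and 24.6% higher among all genes. Il7r, the receptor chain for the homeostatic cytokine IL-7, had 16.8, 9.12 and 16 RPKM in TER119-SIINFEKL and 139, 164 and 161 RPKM in Naive libraries (log2 fold change -3.52 ± 0.21, adjusted p = 1.8e-07). Il6ra had 8.73, 9.23 and 10.3 RPKM in TER119-SIINFEKL and 49.8, 49.8 and 49.4 RPKM in Naive libraries (log2 fold change -2.40 ± 0.12, adjusted p = 5.6e-08), with groups of narrow spread far apart. Ifngr1 and Ifngr2, both chains of the interferon gamma receptor, changed by -1.33 ± 0.15 and -2.96 ± 0.34, and Tgfbr2, for TGF-beta, by -1.20 ± 0.14. Ifngr2 measured 2.79, 1.15 and 1.69 RPKM in TER119-SIINFEKL and 14.1, 13.7 and 13.1 RPKM in Naive libraries. The members that rose were Il3ra (1.01 ± 0.16), Il10ra (0.59 ± 0.14) and Ifnar2 (0.41 ± 0.09). Il2ra, the alpha chain CD25 of activated cells, had 1.41, 3.07 and 0.952 RPKM in TER119-SIINFEKL and 0.987, 2.16 and 1.59 RPKM in Naive libraries, with overlapping groups (log2 fold change 0.10 ± 0.40, adjusted p = 0.86). Il2rb had 197, 257 and 243 RPKM in TER119-SIINFEKL and 142, 183 and 215 RPKM in Naive libraries (adjusted p = 0.082, and 0.0065 in the paired fit).

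Genes of traffic through lymphoid tissue leaned the same way. Of 19 chemokine and egress receptors 10 were lower and 4 higher (median -0.56). S1pr1, the receptor by which T cells leave lymphoid organs, had 56.6, 54.9 and 48.6 RPKM in TER119-SIINFEKL and 161, 182 and 158 RPKM in Naive libraries (log2 fold change -1.64 ± 0.11, adjusted p = 3.3e-07). Ccr7, the receptor for entry to T cell zones, had 106, 89 and 87.9 RPKM in TER119-SIINFEKL and 202, 183 and 202 RPKM in Naive libraries (log2 fold change -1.06 ± 0.13, adjusted p = 2.2e-05). Ccr9, of homing to the gut, had 12.4, 4.05 and 6.68 RPKM in TER119-SIINFEKL and 60.5, 43.2 and 46 RPKM in Naive libraries (log2 fold change -2.83 ± 0.44, adjusted p = 0.00017). Each of the 3 had no overlap between groups. S1pr5 changed by -1.93 ± 0.58, with replicate 1 of TER119-SIINFEKL, at 4.36 RPKM, within the Naive range. Without that replicate its log2 fold change was -2.70, and without TER119-SIINFEKL replicate 2 it was -1.11. The receptors that rose were P2rx7 (1.60 ± 0.19), the ATP-gated channel, Cxcr5 (1.24 ± 0.31), Cxcr3 (0.76 ± 0.23) and Gpr174 (0.60 ± 0.17). Adhesion genes moved in both directions, with 9 of 31 higher and 9 lower. Itgae, the CD103 integrin chain, fell to 7.14, 2.58 and 4.02 RPKM in TER119-SIINFEKL libraries, against 55.4, 45.7 and 49.2 RPKM in Naive libraries (log2 fold change -3.57 ± 0.31, adjusted p = 1.4e-06), and Plaur, the urokinase receptor, fell to 0.461, 0.345 and 1.04 RPKM in TER119-SIINFEKL libraries, against 8.01, 5.18 and 8.46 RPKM in Naive libraries (-3.68 ± 0.41). Itgb1 rose to 140.4, 183 and 158 RPKM in TER119-SIINFEKL libraries, against 43.6, 45.9 and 54 RPKM in Naive libraries (log2 fold change 1.75 ± 0.21, adjusted p = 1.8e-05), and the tetraspanin Cd81 rose by 1.92 ± 0.25.

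Many genes of energy metabolism were higher, those of the tricarboxylic acid cycle and respiratory chain mostly by small amounts. Of 21 glycolysis genes 12 were higher and none lower (median 0.38), and 7 rose at least 2-fold. Hk2, hexokinase 2, had 3.49, 6.95 and 5.71 RPKM in TER119-SIINFEKL and 1.29, 1.27 and 1.01 RPKM in Naive libraries (log2 fold change 2.13 ± 0.25, adjusted p = 1.8e-05). Tpi1 and Gapdh rose by 1.66 ± 0.13 and 1.41 ± 0.11, Pgam1 by 1.23 ± 0.09, and Ldha, lactate dehydrogenase, had 829.6, 733 and 778 RPKM in TER119-SIINFEKL and 364, 346 and 352 RPKM in Naive libraries (1.14 ± 0.12). Of 22 genes of the tricarboxylic acid cycle 15 were higher and none lower (median 0.45), with Fh1 (fumarate hydratase) at 63.4, 49.8 and 54.2 RPKM in TER119-SIINFEKL and 28.7, 21.7 and 26.2 RPKM in Naive libraries (log2 fold change 1.13 ± 0.17, adjusted p = 0.00017). Of 73 respiratory chain and ATP synthase genes 42 were higher and 1 lower (median 0.50), led by Uqcr10 of complex III (1.15 ± 0.27) and the ATP synthase subunit Atp5g3 (1.08 ± 0.15). Without Naive replicate 2 or TER119-SIINFEKL replicate 1, 25 of them were higher. The 1 lower, Cox7a2l, was lost without Naive replicate 1 or 3 or TER119-SIINFEKL replicate 2 or 3. Cholesterol genes gave 2 of 25 lower and 12 higher, among them Cyp51 (1.24 ± 0.12) and Pmvk (1.29 ± 0.12), enzymes of the pathway. Serine synthesis enzymes stood out in the amino acid response list, where 6 of 18 were higher and 1 lower: Psat1 had 86.1, 76.4 and 79.3 RPKM in TER119-SIINFEKL and 22, 18.9 and 19.1 RPKM in Naive libraries (log2 fold change 2.01 ± 0.18, adjusted p = 1.6e-06) and Phgdh rose by 1.31 ± 0.14. Tfrc, the transferrin receptor, rose by 1.51 ± 0.19. The 1 lower, the amino acid transporter chain Slc3a2, was lost without Naive replicate 3 or TER119-SIINFEKL replicate 2 or 3, and 2 were lower without ERY1-OVA replicate 3 or in the paired fit. Of the cholesterol genes 1 was lower without Naive replicate 2 or TER119-SIINFEKL replicate 3, and 1 glycolysis gene was lower without TER119-SIINFEKL replicate 1.

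Many genes of protein synthesis and turnover were higher, those of the cytosolic ribosome excepted. Of 76 mitochondrial ribosomal protein genes 43 were higher and none lower (median 0.48), of 23 cytosolic tRNA synthetases 17 and 0 (median 0.46), of 51 ribosome biogenesis genes 17 and 0 (median 0.28; 28 higher in the paired fit), and of 46 proteasome genes 36 and 0 (median 0.58). Psmd1, of the proteasome's regulatory particle, had 60.7, 57.6 and 58.9 RPKM in TER119-SIINFEKL and 32.6, 30.3 and 32.8 RPKM in Naive libraries (log2 fold change 0.89 ± 0.09, adjusted p = 6.5e-06). Psmg1, an assembly chaperone, rose by 1.03 ± 0.13, Mrps6 by 1.46 ± 0.17, Kars (lysyl-tRNA synthetase) by 0.67 ± 0.09 and Noc4l by 0.85 ± 0.13. Chaperones gave 16 of 37 higher and 1 lower, with Hspd1 (HSP60) up by 0.83 ± 0.17 and Dnajb1 down (-0.82 ± 0.22). Without Naive replicate 1 the count of chaperones lower was 3. Of 82 cytosolic ribosomal protein genes 2 were higher and 16 lower (median -0.38). Rpl30 had 1219, 737 and 895 RPKM in TER119-SIINFEKL and 1616, 1405 and 1706 RPKM in Naive libraries (log2 fold change -0.76 ± 0.19, adjusted p = 0.0059). This count turned on single libraries: it was 48 without TER119-SIINFEKL replicate 1, the library that leaned towards short genes, 4 without TER119-SIINFEKL replicate 2 or Naive replicate 3, and 5 without TER119-SIINFEKL replicate 3 or Naive replicate 1. It was 54 with gene length and GC correction, 25 under quantile normalization, where 11 were higher, 8 in a fit of both groups alone and 39 in the paired fit. Without TER119-SIINFEKL replicate 1, 1 proteasome and 1 ribosome biogenesis gene were lower, and 2 proteasome and 2 mitochondrial ribosomal protein genes were lower in the paired fit. Rps27l, a p53-induced relative of Rps27, went the other way, to 153, 97.3 and 122 RPKM in TER119-SIINFEKL libraries, against 52, 38.7 and 49.6 RPKM in Naive libraries (log2 fold change 1.39 ± 0.28, adjusted p = 0.0012).

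Interferon-stimulated genes leaned down. Of 43 tested 17 were lower and 1 higher (median -0.36). Irf1 had 56.5, 62.8 and 62.8 RPKM in TER119-SIINFEKL and 116, 124 and 139 RPKM in Naive libraries (log2 fold change -1.06 ± 0.16, adjusted p = 0.00013). Gbp7 and Irgm1, interferon-induced GTPases, changed by -1.11 ± 0.16 and -1.09 ± 0.18, Ddx58, the RNA sensor RIG-I, by -0.78 ± 0.14, and Oasl2 by -2.40 ± 0.53. Oasl2 had 1.91, 0.566 and 0.401 RPKM in TER119-SIINFEKL and 2.94, 5.03 and 4.35 RPKM in Naive libraries, and without TER119-SIINFEKL replicate 1 its log2 fold change was -3.07. The count lower was 11 without Naive replicate 2, 10 without TER119-SIINFEKL replicate 2 and 8 without TER119-SIINFEKL replicate 3. The 1 higher, Eif2ak2 (the kinase PKR), was lost without Naive replicate 1, and 2 were higher without Naive replicate 2 or TER119-SIINFEKL replicate 3 or in the paired fit.

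Genes of cell death moved on both sides of the balance. Of 17 BCL-2 family genes 7 were higher and 3 lower, with 5 lower in the paired fit. Bcl2, the survival factor maintained by IL-7, had 6.7, 6.11 and 7.15 RPKM in TER119-SIINFEKL and 22.1, 30.5 and 32 RPKM in Naive libraries (log2 fold change -2.07 ± 0.18, adjusted p = 1.7e-06). Bcl2l1, which encodes BCL-XL, had 16.5, 22.3 and 18.3 RPKM in TER119-SIINFEKL and 7.23, 8.84 and 9.54 RPKM in Naive libraries (log2 fold change 1.16 ± 0.15, adjusted p = 3.2e-05). The survival genes Bcl2a1a, Bcl2a1b and Bcl2a1d rose by 3.91 ± 0.40, 3.62 ± 0.37 and 3.80 ± 0.39. They are near-identical copies whose reads may be split between them, so the 3 are uncertain as separate results. Of the proapoptotic members, Bbc3 (PUMA) fell to 5.29, 2.59 and 4.54 RPKM in TER119-SIINFEKL libraries, against 20.2, 18.5 and 27.6 RPKM in Naive libraries (-2.46 ± 0.35), while Bcl2l11 (BIM) and Bak1 rose by 0.68 ± 0.24 and 0.94 ± 0.10. Of 28 caspase and death signalling genes 13 were higher and 3 lower. Casp4 rose by 3.20 ± 0.42, and Ripk3 and Mlkl, the kinase and effector of necroptosis, rose by 1.08 ± 0.13 and 1.95 ± 0.26. Without Naive replicate 3 or TER119-SIINFEKL replicate 2, 1 of the death signalling genes was lower.

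Clock genes leaned down. Of 14 tested 8 fell and none rose (median -0.89), although 1 was higher without ERY1-OVA replicate 3 or in the paired fit. Nr1d1 (REV-ERB alpha), a repressor of the clock loop, had 0.567, 0.474 and 0.588 RPKM in TER119-SIINFEKL and 2.02, 3.34 and 3.75 RPKM in Naive libraries (log2 fold change -2.44 ± 0.38, adjusted p = 0.00017). Nr1d2 had 2.82, 1.74 and 2.73 RPKM in TER119-SIINFEKL and 8.18, 7.13 and 10.4 RPKM in Naive libraries (log2 fold change -1.83 ± 0.31, adjusted p = 0.00034). Cry1 and the kinase Csnk1e changed by -0.81 ± 0.14 and -1.18 ± 0.18 and the core activators Clock and Arntl by -1.19 ± 0.22 and -0.64 ± 0.12. Per1 had 8.35, 12.9 and 14.7 RPKM in TER119-SIINFEKL and 15.7, 12.2 and 20.7 RPKM in Naive libraries and did not pass (adjusted p = 0.3). The E-box CACGTG, the word the clock activators bind, was in 4 of 11 clock promoters (36.4%) and 12.5% of all promoters. Lysosome and autophagy promoters were the only list with a higher share (39.1%). The hour of collection is not in the labels used here.

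Lists of other functions were mixed. Lysosome and autophagy genes gave 4 of 32 higher and 12 lower, with Gabarapl1 up (1.72 ± 0.22) and Neu1 down (-0.74 ± 0.12). Transporters gave 10 of 40 higher and 16 lower. Slc16a5, a monocarboxylate transporter, fell to 1.03, 0.785 and 1.19 RPKM in TER119-SIINFEKL libraries, against 11.6, 12.8 and 12.1 RPKM in Naive libraries (-3.62 ± 0.70), and Slc25a13, a mitochondrial carrier, rose to 7.65, 6.86 and 6.33 RPKM in TER119-SIINFEKL libraries, against 1.62, 1.74 and 0.893 RPKM in Naive libraries (2.35 ± 0.21). Of 8 Gimap GTPases 1, Gimap7, was higher and 3, Gimap8, Gimap3 and Gimap9, were lower. Gimap8 changed by -0.40 ± 0.10, and the calls of Gimap7 and Gimap9 were lost when single libraries were left out, among them Naive replicate 3.

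Outside the lists, large changes fell on genes of other known functions. Igfbp4, a binding protein of insulin-like growth factors, showed the largest fall, to 4.98, 1.54 and 5.82 RPKM in TER119-SIINFEKL libraries, against 112, 109 and 99.5 RPKM in Naive libraries (log2 fold change -4.91 ± 0.36, adjusted p = 5.6e-07). Without TER119-SIINFEKL replicate 2 its log2 fold change was -4.31. Nrn1 (neuritin) rose to 20.4, 35.8 and 34.8 RPKM in TER119-SIINFEKL libraries, against 0.446, 0.61 and 0.749 RPKM in Naive libraries (log2 fold change 5.64 ± 0.59, adjusted p = 6.7e-06), Nrgn (neurogranin, a calmodulin-binding protein) to 24.2, 25.3 and 33 RPKM in TER119-SIINFEKL libraries, against 0.741, 0.292 and 0.595 RPKM in Naive libraries (5.75 ± 0.93), and Chst2, a sulfotransferase, rose by 5.42 ± 0.44. These 3 sizes depended on the settings of the fit: Nrn1 ran from 4.25 to 5.91, Nrgn from 4.21 to 6.03 and Chst2 from 3.17 to 5.71. Cd163l1 changed by -3.04 ± 0.42 and Rhob, a small GTPase, by -2.62 ± 0.53. Measured in RPKM rather than in folds, the actin genes led: Actg1 rose to 2881, 3354 and 3121 RPKM in TER119-SIINFEKL libraries, against 1385, 1688 and 1501 RPKM in Naive libraries (log2 fold change 1.03 ± 0.15, adjusted p = 0.00011), and Actb rose by 0.60 ± 0.17, a call lost without Naive replicate 3. Ptma and H2afz, a histone variant, rose by 0.84 ± 0.11 and 1.61 ± 0.23. The largest fall in RPKM was in Tpt1, the translationally controlled tumour protein, with 5611, 2790.5 and 3318 RPKM in TER119-SIINFEKL and 8332, 6561 and 7336 RPKM in Naive libraries (log2 fold change -0.98 ± 0.25, adjusted p = 0.0052). Gm9846, Gm10275, Gm6472 and Gm9396 followed with the ribosomal protein genes Rps24, Rps27 and Rps29. The predicted genes may be processed copies whose reads the counting could have shared with their parents, so they are not counted as separate changes, and all 7 calls were lost without TER119-SIINFEKL replicate 2 or 3 or Naive replicate 1 or 3.

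Set against the other antigens, TER119-SIINFEKL cells differed from the whole-protein groups in few genes and from free peptide in many. Between TER119-SIINFEKL and ERY1-OVA 55 genes (0.562%) differed, 48 higher (0.490%) and 7 lower (0.0715%). Between TER119-SIINFEKL and OVA 148 genes (1.51%) differed, 89 higher (0.909%) and 59 lower (0.602%). Between TER119-SIINFEKL and SIINFEKL 3664 genes (37.4%) differed, 1996 higher (20.4%) and 1668 lower (17.0%), and the 2 SIINFEKL libraries lay apart from each other, at -11.9 and -48.3 on the principal component that held 63.6% of the variance. These comparisons share the TER119-SIINFEKL libraries. The count against OVA was 49, 57 and 54 without OVA replicate 1, 2 and 3, 45 and 55 without TER119-SIINFEKL replicate 2 and 3, and 277 and 280 without SIINFEKL replicate 1 and 2. With replicate number as a block in a fit of TER119-SIINFEKL and OVA alone it was 855. The count against ERY1-OVA was 0 without ERY1-OVA replicate 2, TER119-SIINFEKL replicate 2 or TER119-SIINFEKL replicate 3, where 799, 985 and 801 genes had an unadjusted limma p under 0.05 (1065 with all libraries). It was also moved by over 1.5 times by each other library left out except OVA replicate 1 and TER119-SIINFEKL replicate 1, to between 13 and 29 without another Naive, OVA or ERY1-OVA library and to 163 and 162 without SIINFEKL replicate 1 and 2.

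In 13 genes (0.133%) TER119-SIINFEKL was called higher than each of the 4 other groups, with all 3 libraries above all 11 others, and in 4 genes (0.0408%) it was lower in the same sense. The higher genes were Ccl4, Xcl1, Tnfsf14, Tnfrsf9, Nr4a3, Egr2, Sh3bp2, Cd22, Smyd5, Slc19a1, Bcl2l1, Car12 and Crtam. Tnfsf14 had 27.9, 27.2 and 23.8 RPKM in TER119-SIINFEKL, 9.57, 10.9 and 8.57 RPKM in ERY1-OVA, 9.66, 8.09 and 6.78 RPKM in OVA, 11.7 and 7.39 RPKM in SIINFEKL and 5.78, 7.0 and 7.95 RPKM in Naive libraries. It exceeded ERY1-OVA by 1.45 ± 0.18, adjusted p = 0.011 and OVA by 1.70 ± 0.18, adjusted p = 0.00073 on the log2 scale. Egr2 had 12.8, 15.2 and 11.7 RPKM in TER119-SIINFEKL, 6.89, 7.36 and 5.85 RPKM in ERY1-OVA, 2.93, 2.99 and 2.62 RPKM in OVA, 6.9 and 6.34 RPKM in SIINFEKL and 3.09, 3.75 and 3.88 RPKM in Naive libraries. For Egr2 the OVA libraries lay below the Naive libraries, and the ERY1-OVA and SIINFEKL libraries between Naive and TER119-SIINFEKL (0.98 ± 0.14, adjusted p = 0.011 against ERY1-OVA). Nr4a3 had 12.4, 18.3 and 16.4 RPKM in TER119-SIINFEKL, 9.05, 5.96 and 6.84 RPKM in ERY1-OVA, 3.75, 4.36 and 4.02 RPKM in OVA, 4.78 and 3.59 RPKM in SIINFEKL and 3.85, 4.77 and 3.62 RPKM in Naive libraries (1.11 ± 0.19, adjusted p = 0.025 against ERY1-OVA). Xcl1 had 362, 173 and 268 RPKM in TER119-SIINFEKL and 60.4, 79.2 and 91.8 RPKM in ERY1-OVA libraries (1.75 ± 0.33, adjusted p = 0.037), and Ccl4 had 49.6, 44.4 and 49.9 and 8.67, 14.5 and 16.1 RPKM in the same groups (1.92 ± 0.38, adjusted p = 0.043). Tnfrsf9 exceeded ERY1-OVA by 1.39 ± 0.27, adjusted p = 0.044.

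Cd22 (chr7:30865402-30880342, minus strand, GRCm38), an inhibitory lectin best known from B cells, had 10.9, 10.9 and 12.4 RPKM in TER119-SIINFEKL, 6.28, 6.02 and 5.9 RPKM in ERY1-OVA, 6.82, 6.41 and 6.97 RPKM in OVA, 3.87 and 3.57 RPKM in SIINFEKL and 0.317, 0.435 and 0.369 RPKM in Naive libraries. It was the gene with the smallest adjusted p against Naive (log2 fold change 4.94 ± 0.14, adjusted p = 7.6e-11). That fold change ran from 3.17 to 5.08 over the alternative settings. Cd79b, the only other B cell marker of 6 with a row, had 16.6, 14.4 and 11.4 RPKM in TER119-SIINFEKL and 9.96, 9.58 and 8.12 RPKM in Naive libraries and did not pass (adjusted p = 0.063) but passed in the paired fit (adjusted p = 0.0015), while Cd79a, Ms4a1 and Pax5 had none. The part of B cells in the Cd22 result was not tested. Slc19a1, the reduced folate carrier, had 14.4, 16.8 and 18.5 RPKM in TER119-SIINFEKL against 9.74, 8.06 and 9.16 RPKM in Naive libraries, and Sh3bp2, an adaptor, had 8.91, 8.54 and 8.41 against 5.48, 4.23 and 5.6 RPKM. The lower genes were Ggt1, Il6ra, S1pr1 and Galnt6. Ggt1, a glutathione-cleaving enzyme of the cell surface, had 6.07, 4.19 and 4.58 RPKM in TER119-SIINFEKL, 9.69, 8.15 and 9.95 RPKM in ERY1-OVA, 16.7, 13.4 and 10.6 RPKM in OVA, 8.28 and 7.67 RPKM in SIINFEKL and 38.9, 30.8 and 29.5 RPKM in Naive libraries (-0.92 ± 0.18, adjusted p = 0.043 against ERY1-OVA). Galnt6, a mucin-type glycosyltransferase, differed from Naive by -1.22 ± 0.09. None of the 17 kept this place without ERY1-OVA replicate 2, TER119-SIINFEKL replicate 2 or TER119-SIINFEKL replicate 3. Over the 27 alternatives that could give a value, Tnfsf14 kept it under 24, Egr2 and Nr4a3 under 23, Cd22 under 17, Xcl1 and Tnfrsf9 under 15, Ccl4 under 13 and S1pr1 under 12.

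**Figure D5:**
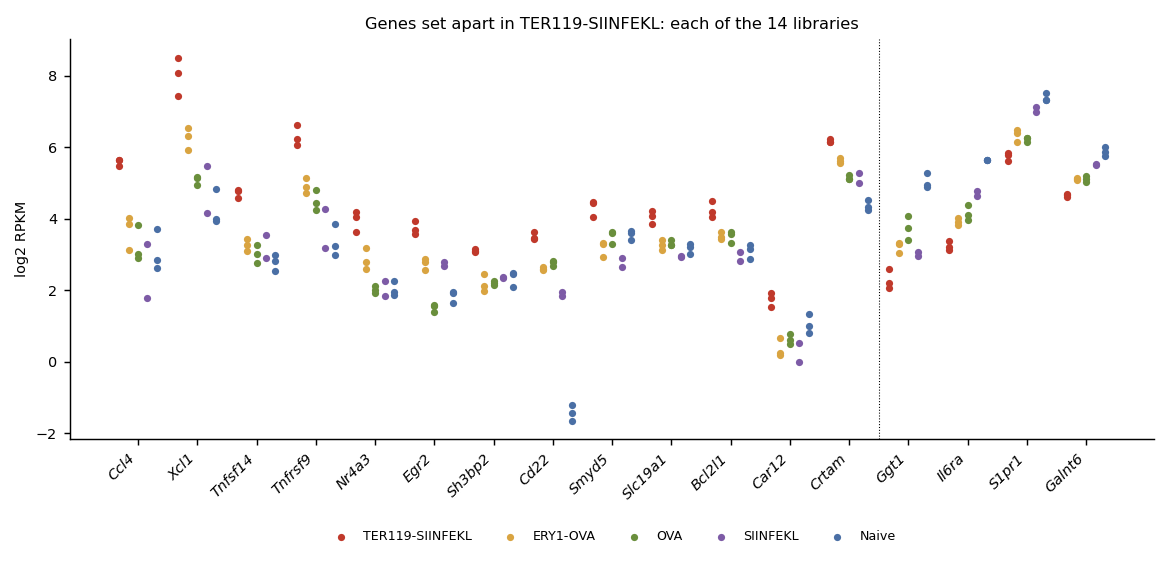
Points give log2 RPKM of each of the 14 libraries, coloured by group, for the 13 genes in which TER119-SIINFEKL was above all other groups (left of the dotted line) and the 4 in which it was below. The 3 TER119-SIINFEKL points lie beyond the 11 others for each gene, as for Tnfsf14 at 23.8 to 27.9 RPKM.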

How the data were processed

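Per the submitters' processing notes the reads passed through bcl2fastq 2.17.1.14, STAR 2.4.2 and edgeR, with GRCm38 and mm10 named as builds; roles and settings, strand included, are not given in the sources used here. The authors deposited log2 RPKM values for 10106 genes in 14 libraries; 4.3% of values are below 0, and the prior count behind them is not given. RPKM printed here is the power of 2 of the deposited log2 value, so no counts were tested. Read totals were inferred from steps between low values (about 38400000 to 88700000 reads over the libraries). In each library 62.4 to 68.7% of low genes fell within 0.15 reads of a whole number plus a fitted offset (0.17 to 0.45 reads), against 30.0% by spacing alone. Spacing and offset were fitted to these same values, which the 30.0% does not allow for. Whole reads were not recovered and these totals are estimates.

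Genes with a mean of at least 1 RPKM were kept (9793 tested, 313 removed). The test was limma (3.58.1, run under R 4.3.3) on the deposited log2 scale without a pseudocount. Its model had a mean for each of 5 groups, let the prior variance follow expression, and used 4.6 degrees of freedom from the prior beside 9 from the libraries; p was adjusted by Benjamini-Hochberg. Calls are at an adjusted p under 0.05. The scripts were tested on simulated data. Tables were made with pandas 2.3.3 and numpy 2.4.6, and figures with matplotlib 3.10.9, all under Python 3.11.15.

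The 40 gene lists and the genes named were chosen with earlier results of these data known. Named genes were the 12 largest called rises and falls (groups not overlapping, mean of at least 3 on the log2 RPKM scale), the 8 largest of each in RPKM, per list 4 by adjusted p and 2 by fold, up to 10 set apart in each direction, and core genes. Other list members were named after their values were seen. The core genes Havcr2, Rnf128 and Foxp3 had no row, and Prdm1 was removed by the filter. Some genes are not reported here. Promoters came from RefSeq (GRCm38.p6) for 7742 genes, and positions from GENCODE for 10027 genes, with 79 unmatched.

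Replicate numbers from the titles were checked for pairing: deviations from the group mean correlated at 0.26, 0.32 and 0.30 between same-numbered TER119-SIINFEKL and Naive libraries. Differently numbered libraries of these groups gave -0.26 to -0.1. Deviations within a group cancel out, so these values are not independent of those for same numbers. Between TER119-SIINFEKL and OVA same numbers gave 0.67, 0.29 and 0.25. There TER119-SIINFEKL replicate 2 gave 0.55 with OVA replicate 3, and replicate 3 gave 0.44 with OVA replicate 2. Same numbers of TER119-SIINFEKL and ERY1-OVA gave -0.31, -0.41 and 0.38. These values do not show pairing with OVA or ERY1-OVA, and each fit with the block assumes that the numbers pair the samples. Alternatives covered normalization, pseudocounts, filters, moderation, weights, the block, the groups fitted, a fold requirement, length and GC correction and each library left out. The block in fits of only 2 groups, and the removal of TER119-SIINFEKL replicate 1 with OVA replicate 1, were added after seeing the data.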

Additional observations from a re-analysis of the deposited data

How the results depend on the processing

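Against Naive, 2406 genes were higher and 2251 lower. Leaving out each library in turn gave 2023 to 2510 higher and 1838 to 2364 lower, and a log2 fold change of at least 1 left 724 and 525. With replicate number as a block 2403 were higher and 2263 lower, of which 2348 and 2187 were called without it; among genes whose values are printed the block in that fit ended the call of Cblb and added one for Ifng, Fos and Cd79b. The block in a fit of both groups alone gave 2970 higher and 2741 lower, and added calls for those 3 and for Nr4a1, Nt5e, Dgka, Tcf7, Gzma, Il2, Eomes, Myc, Cd69, Il2rb and Pecam1. Of 232 named genes called, 213 were called under all alternatives other than the 2-fold requirement, 19 lost the call under at least 1, and none reversed. Of 14 named genes not called, 10 passed under at least 1 alternative. Gzmb (-0.07; -0.27 to 0.14 with single libraries left out) turned to 0.11 without Naive replicate 1 and 0.14 without TER119-SIINFEKL replicate 3. Il2ra (0.10; -0.37 to 0.47) turned to -0.00 under quantile normalization, -0.54 with array weights, -0.04 with length and GC correction, -0.21 without Naive replicate 1 and -0.37 without TER119-SIINFEKL replicate 2; neither gene was called, and the cause was not tested. Beside the cytosolic ribosomal proteins and counts of 3 or fewer in other lists, the list counts that moved by over 1.5 times under quantile normalization were those of the receptor complex (19 lower, 1 higher), attenuation (3 higher) and cytotoxic genes (5 lower). With length and GC correction they were those of cytotoxic genes (7 lower), effector factors (4 higher), the amino acid response (10 higher), chaperones (9 higher), the BCL-2 family (6 lower) and the respiratory chain (3 lower).

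The comparisons with other antigens moved far more. Against ERY1-OVA (55 genes) the count was 16 with the fold requirement, 29 with no mean-variance trend, 2477 with array weights, 32 with the replicate block, 163 with the SIINFEKL group left out, 88 with length and GC correction and 0 with the block in a fit of both groups alone (747 genes at an unadjusted limma p under 0.05). Leaving out single libraries gave 0 to 163. Against OVA (148 genes) it was 51 with the fold requirement, 3285 with array weights, 277 with SIINFEKL left out, 236 with length and GC correction, 855 with the block in a fit of both groups alone and 20 without TER119-SIINFEKL replicate 1 and OVA replicate 1; single libraries gave 45 to 280. Against SIINFEKL (3664 genes) it was 941 with the fold requirement and 2131 in a fit of both groups alone, and single libraries gave 2879 to 3774. Genes set apart upward (13) numbered 5 with the fold requirement, 8 with no trend, 74 with array weights, 22 with length and GC correction and 5 without TER119-SIINFEKL replicate 1 and OVA replicate 1, and 0 to 23 with single libraries left out. Those set apart downward (4) numbered 0, 1, 67 and 7 under the fold requirement, no trend, array weights and length and GC correction, 7 with median-of-ratios rescaling, and 0 to 15 with single libraries left out. The array weights did not converge, so their counts carry no weight. The cause of the other shifts was not tested. Without 1 library a group of SIINFEKL keeps a lone sample, assumed to vary like the rest. Reads per gene are not known, which limits genes near 1 RPKM.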
